A study of Mus musculus with 4 samples.

Results

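The loci of 6 transcription factor genes of blood formation, Runx1, Spi1, Tal1, Gata2, Klf1 and Gfi1b, were examined on tiling arrays that measured DNA methylation in mouse fetal liver. Members were all non-control probes whose start lay in a fixed window around each gene on the mm9 build, whatever their values. The rule gave 295 of 415749 usable probes (0.07%), with 56 at Runx1, 49 at Spi1, 49 at Tal1, 51 at Gata2, 50 at Klf1 and 40 at Gfi1b. Of these probes, 288 fell into 38 regions, out of 56653 regions on the whole array, and 7 did not. Among the 7, 1 at Spi1 and 2 at Tal1 belong to regions that cross the end of a window and were not counted. The others had too few close neighbours to form a region. A region is a run of at least 3 probes with starts at most 500 bp apart, cut into pieces of at most 2000 bp.

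Methylated DNA was precipitated and hybridised together with total genomic DNA of the same pool, the reference. Livers came from C57BL/6J fetuses on gestation day 18. In the control group the dams ate freely, and in the food restricted (FR) group they were given 50% of the control group's chow from gestation day 10 to 17. Each group was 1 pool of liver DNA described as N = 6, without a statement of whether fetuses or litters were counted, and no source used here gives the fetuses' sex. Each pool was hybridised on 2 arrays, on slide 1 with precipitated DNA in Cy5 and on slide 2 with precipitated DNA in Cy3, so that repeats within a pool are technical. With 1 pool in a group no test of the groups was run, no p-value was computed, and values are given for every array. Whole liver DNA was used, so methylation per cell and the shares of the cell types cannot be told apart. Methylation arrays measure no transcripts, and the cell makeup of the livers was not checked against markers.

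The fetal liver is both a developing gland and the main site of blood formation before birth. Runx1, Tal1 (also known as Scl) and Gata2 encode factors needed for the emergence of blood stem cells. Spi1 encodes PU.1, the ETS factor of myeloid and B cells, and Klf1 and Gfi1b encode zinc finger factors of red cell and platelet precursors. Cytosine methylation in mammals falls mainly on CpG dinucleotides; CpG-rich promoters are usually unmethylated, and CpG-poor promoters are often methylated in cells that do not use the gene.

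How many CpG pairs a fragment holds bears on how well it can be precipitated, and the promoters of these genes differ widely in that respect. RefSeq's promoter table (assembly GRCm38.p6), with 250 bases before and 50 after each start, holds 8 entries for 5 of the 6 genes and none was found for Spi1. The motif CG, which reads the same on both strands, occurs a median of 7 times in the 32851 promoters of the table. Runx1 is transcribed from a pair of promoters, shown first because they stand at both ends of this range, followed by the first Gata2 entry, from the locus with the single most enriched region, and by Klf1, the locus with the only called difference between the pools. Sequences run 5′ to 3′ on the strand of the gene, and capitals mark each CG.

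Runx1, first entry: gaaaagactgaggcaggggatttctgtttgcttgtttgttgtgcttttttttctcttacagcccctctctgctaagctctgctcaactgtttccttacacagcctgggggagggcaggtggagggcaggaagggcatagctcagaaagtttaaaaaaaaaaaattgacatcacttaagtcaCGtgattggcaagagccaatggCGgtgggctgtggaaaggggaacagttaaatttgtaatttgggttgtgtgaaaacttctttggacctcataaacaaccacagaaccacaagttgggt
Runx1, second entry: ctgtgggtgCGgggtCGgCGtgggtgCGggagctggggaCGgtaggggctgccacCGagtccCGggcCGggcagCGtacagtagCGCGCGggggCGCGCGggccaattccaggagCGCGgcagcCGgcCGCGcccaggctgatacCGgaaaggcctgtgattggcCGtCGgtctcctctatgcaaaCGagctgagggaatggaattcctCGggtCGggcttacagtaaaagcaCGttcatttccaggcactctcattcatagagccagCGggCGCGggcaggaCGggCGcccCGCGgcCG
Gata2, first entry: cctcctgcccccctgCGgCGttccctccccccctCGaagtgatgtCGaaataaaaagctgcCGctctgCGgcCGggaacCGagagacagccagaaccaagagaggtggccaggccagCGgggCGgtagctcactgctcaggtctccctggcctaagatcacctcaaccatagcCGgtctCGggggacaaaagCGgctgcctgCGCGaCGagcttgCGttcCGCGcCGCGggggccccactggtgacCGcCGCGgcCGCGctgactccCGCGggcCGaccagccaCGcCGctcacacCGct
Klf1: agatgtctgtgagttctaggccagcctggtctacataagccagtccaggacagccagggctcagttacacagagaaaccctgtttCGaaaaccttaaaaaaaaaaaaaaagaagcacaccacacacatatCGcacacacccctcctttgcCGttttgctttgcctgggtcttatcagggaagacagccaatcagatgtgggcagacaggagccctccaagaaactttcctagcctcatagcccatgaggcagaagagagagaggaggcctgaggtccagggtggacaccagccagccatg

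The first Runx1 entry held 2 CG and the second 35, and 85.9% and 6.95% of all promoters held at least as many. The first Gata2 entry held 32 and the second 29, and 9.52% and 12.9% of all promoters held at least as many. The 2 Tal1 entries held 11 and 22. The Klf1 promoter held 3, which 76.7% of all promoters reached, and the Gfi1b promoter held 7. The table and the probes are on different builds, so no probe was assigned to a promoter, an exon or an intron, and a window may also hold ends of the next genes. The nearest protein-coding neighbours in RefSeq's order were Clic6 and Setd4 for Runx1, Slc39a13 and Mybpc3 for Spi1, Stil and Pdzk1ip1 for Tal1, Rpn1 and Dnajb8 for Gata2, Gcdh and Dnase2a for Klf1, and Gtf3c5 and Tsc1 for Gfi1b.

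M denotes enrichment, log2 of the precipitated over the reference signal, shifted so that the median probe of each array is 0. M rises with methylation and with CpG density, so the order of loci by M is not an order of methylated cytosines. Paired values are given as slide 1, then slide 2. Over all probes, 72.2% and 72.0% of the precipitated signals of the control pool were well above background, against 79.9% and 80.6% in the FR pool. At the 295 member probes these shares were 86.8% and 86.1% against 93.2% and 91.2%, so the precipitated signal was brighter in the FR pool at these loci as on the array as a whole. The control pool held the same array position on both slides, so position and pool cannot be told apart. The deposited value table gives 2 arrays, FR on slide 1 and control on slide 2, each other's values, and the assignment used here is that of the scanner files, whose ratios run as the labelled dyes require.

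The 6 loci were more enriched than the typical probe of the array. Their median M was 0.56 and 0.57 in the control pool and 0.52 and 0.46 in the FR pool, where the array median is 0 by construction. This did not hold for each locus: the median of the Tal1 probes was below -1 on every array. With loess normalization only Spi1 had a median above 0 in either pool. Averaged over the 4 arrays, 39.3% of member probes had M above 1, against 31.7% of all probes, and 25.1% had M below -1, against 28.3%. Of the 38 regions, 16 (42.1%) had M above 1 and 6 (15.8%) below -1, against 28.6% and 24.9% of all regions. The member probes kept their profile from array to array, with r = 0.96 between the repeats of either pool and between 0.93 and 0.95 for arrays of different pools. These correlations run across neighbouring probes, which are not independent, and all arrays share the probes' base composition.

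Spi1 was the most enriched locus and Tal1 the least. The median M of the Spi1 probes was 1.67 and 1.58 in the control pool and 1.62 and 1.58 in the FR pool. Gata2 followed with 1.44 and 1.24 against 1.09 and 1.10. Klf1 stood at 0.88 and 0.84 against 0.77 and 0.80. These 3 loci did not overlap over the 4 arrays, and all lay above the other 3. Runx1, with 0.56 and 0.70 against 0.27 and 0.35, and Gfi1b, with 0.50 and 0.31 against 0.54 and 0.41, overlapped each other. Tal1 stood at -1.34 and -1.20 against -1.01 and -1.21, below every other locus on every array. At Tal1, 69.4% and 67.3% of the precipitated signals of the control pool were well above background, against 87.8% and 81.6% in the FR pool, the lowest control shares of the 6 loci. Tal1 was the lowest locus in both pools under all 12 settings that give levels. Spi1 was the highest under 11 of them, and Gata2 stood above it in both pools once dim precipitated probes were left out, at 1.91 against 1.79 in the control pool and 1.78 against 1.71 in the FR pool. Several of these settings could not change the order of the loci by construction. They are no centring, centring on the densest value, probes at most 300 bp apart and the deposited value table. The running median changed the FR pool only. With loess normalization the medians of Runx1, Gata2, Klf1 and Gfi1b turned to values between -0.43 and -0.04, while Spi1 stayed above 0, at 0.18 in the control and 0.41 in the FR pool, and Tal1 stood at -0.91 and -0.84 in the same order of pools. With normexp correction Gfi1b alone turned, to -0.14 in the control pool and -0.03 in the FR pool.

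**Figure D1:**
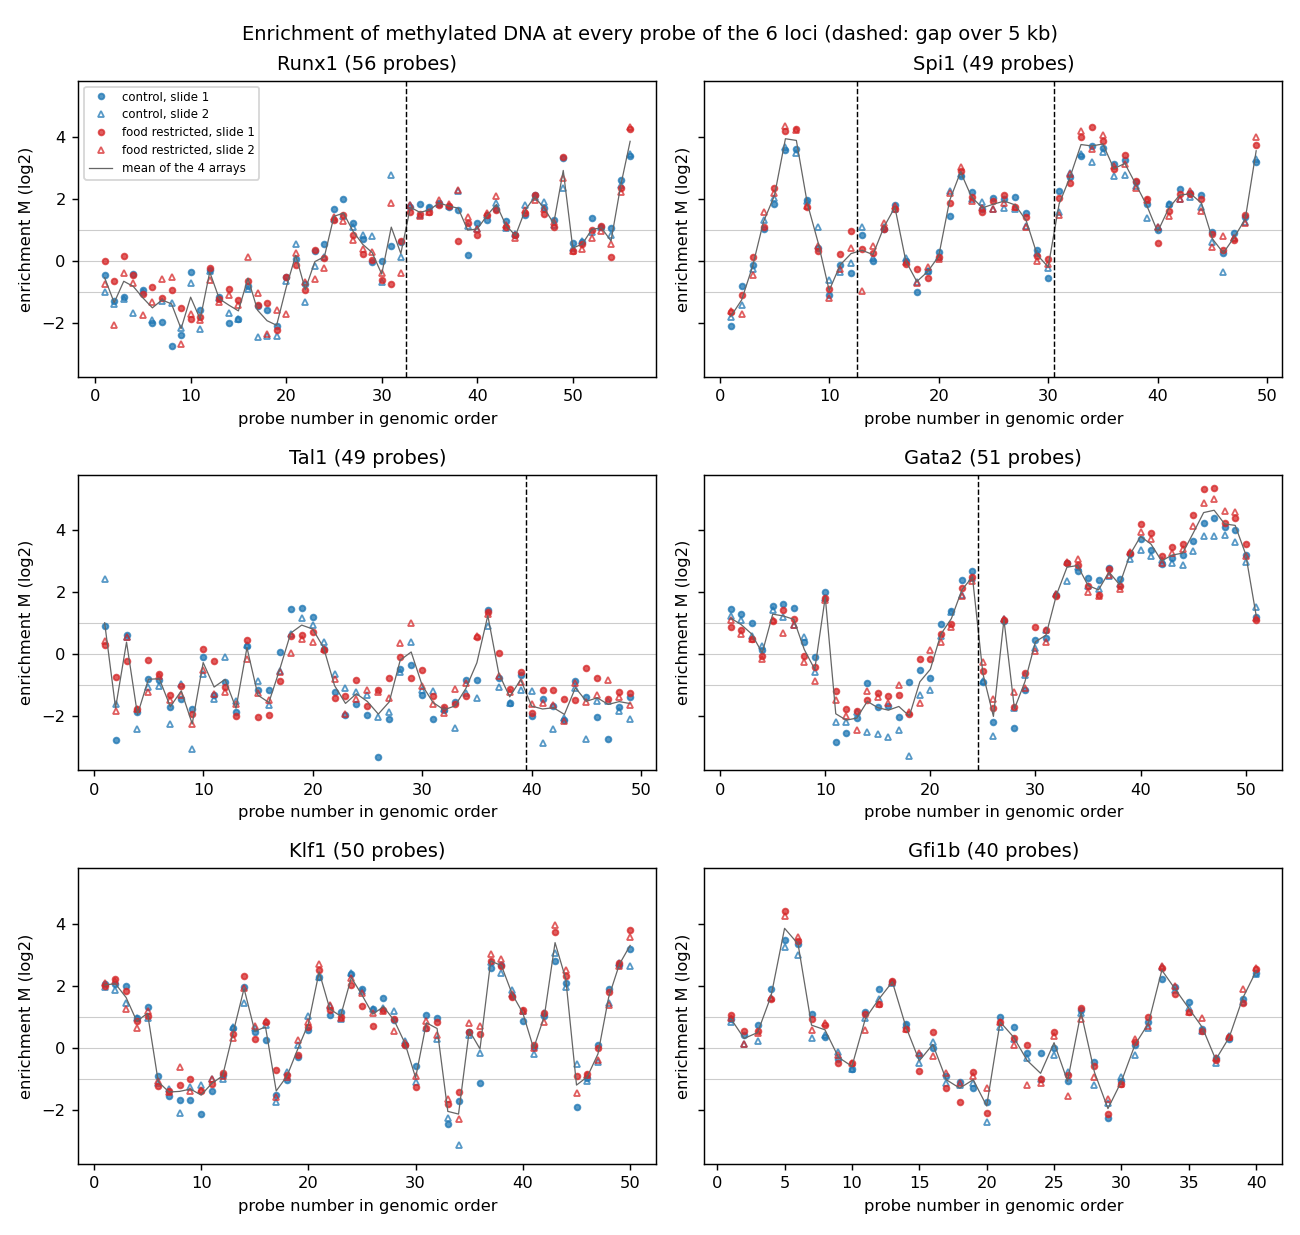
M (log2) of every member probe on the 4 arrays against the probe's number in genomic order, 1 panel per locus. Circles are slide 1, triangles slide 2, blue the control and red the food restricted pool, the line is the mean of the 4 arrays, and dashed lines mark gaps over 5 kb; at Runx1 the probes before the gap lie mostly below those after it, Gata2 falls below -1 before it rises past 4, and most Tal1 probes lie below 0.

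Runx1, the factor of definitive stem cell emergence, was covered in separate blocks of opposite level. The block on chromosome 16 from 92694995 to 92700954 (32 probes) had a median M of -0.64 and -1.01 in the control pool and -0.65 and -0.66 in the FR pool. The block from 92825316 to 92829651 (24 probes), 124.4 kb further on, had 1.56 and 1.59 against 1.49 and 1.55. No probe of the second block had a mean M below -1, and 14 of the 32 in the first did. In RefSeq's assembly the Runx1 entry with 35 CG has the lower and the entry with 2 CG the higher position on the chromosome, but the entries were not placed on these blocks. The lowest region, from 92696987 to 92698853 (11 probes), had M of -1.46 and -1.70 in the control pool and -1.23 and -1.34 in the FR pool. The next region, beginning at 92699012, lay 1.89 above it on average, at 0.55 and 0.78 against 0.21 and 0.28. The highest region, from 92825316 to 92826668 (8 probes), had 1.73 and 1.73 against 1.53 and 1.68.

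Tal1, the basic helix-loop-helix factor of blood specification, lay low over nearly all of its probes. Of its 49 probes, 31 had a mean M below -1 and 2 had one above 1. No 3 neighbouring probes all exceeded 1, whereas 4 runs of 3 or more stayed below -1. The longest of these runs, 10 probes on chromosome 4 from 114757959 to 114759932, had a median of -1.61. It contained the lowest region, from 114757959 to 114759562 (8 probes), with M of -1.84 and -1.79 in the control pool and -1.31 and -1.56 in the FR pool. The highest Tal1 region, from 114732232 to 114733415 (7 probes), reached only 0.17 and 0.40 against 0.13 and 0.05. A further 2 probes at this edge belong to a region of 9 that crosses the window's end and was not counted as a member.

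Gata2, the zinc finger factor of stem and progenitor cells, held both the lowest and the highest region of all 38. The lowest, on chromosome 6 from 88147216 to 88148553 (7 probes), had M of -1.70 and -2.20 in the control pool and -1.35 and -1.50 in the FR pool, with 4 and 3 of its 7 precipitated signals well above background in the control pool and 5 on both FR arrays. All but the first of its probes belonged to a run of 8 probes below -1, from 88147398 to 88149190, whose median was -1.87 over the mean of the 4 arrays. The first probe, from 88147216 to 88147260, had a mean M of 1.85. The highest region, from 88172036 to 88173485 (10 probes), had M of 3.43 and 3.19 against 3.91 and 3.76, above 98.1% of all regions on the array. It closed a run of 20 probes above 1 that spanned 3396 bp from 88170090, with a median of 3.21 and a highest probe of 4.65. Gata2 also had the largest steps between neighbouring regions. M fell by 2.60 from the first region to the second and rose by 2.38 from the fourth to the fifth. These were the only steps over 2 among the 20 pairs of adjoining regions at the 6 loci (10%), against 22.6% of 24835 such pairs on the array.

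Spi1, which encodes PU.1, had no run of 3 probes below -1 and 4 runs above 1. Its probes lay in 3 blocks on chromosome 2 whose medians rose along the chromosome: 0.14 and 0.51 in the control pool and 0.64 and 0.45 in the FR pool for the first, 1.23 and 1.11 against 1.22 and 1.16 for the second, and 2.25 and 2.00 against 2.15 and 2.00 for the third. The highest region, from 90955034 to 90956608 (9 probes), had 3.13 and 2.78 against 2.97 and 3.05, and every one of its probes exceeded 1. The lowest region, from 90912146 to 90913145 (4 probes), had 0.14 and 0.36 against 0.27 and 0.10, where the pools overlapped. A region of 5 probes with 1 inside the window was not counted.

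Klf1, the activator of adult globin and other red cell genes, was covered by 1 block of 50 probes on chromosome 8 from 87416676 to 87433615 in which high and low probes alternated. Runs above 1 stood at 5 places, with medians between 1.25 and 2.70, and 1 run of 6 probes from 87417541 to 87418440 had a median of -1.38. The region of lowest mean M, from 87416676 to 87418214 (10 probes), straddled a high and a low run and stood at 0.01 and -0.10 in the control pool and -0.07 and 0.00 in the FR pool. The region of highest M, from 87431353 to 87432339 (3 probes), had 2.08 and 1.98 against 2.30 and 2.51. It rests on few probes, of which 2 were well above background in the precipitated channel on every array.

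Gfi1b, a zinc finger repressor needed for red cells and platelets, had a sharp peak near one end of its block on chromosome 2, from 28469943 to 28481027. A run of 3 probes from 28470597 to 28471090 had a median of 3.35, and the region that holds it (6 probes from 28469943) had M of 1.41 and 1.22 in the control pool and 1.32 and 1.28 in the FR pool. The lowest region, from 28472870 to 28474180 (7 probes), had -0.90 and -1.13 against -0.79 and -0.81. A second rise at the far end, from 28478522 to 28480437 (8 probes), had 1.15 and 0.96 against 1.07 and 1.05.

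**Figure D2:**
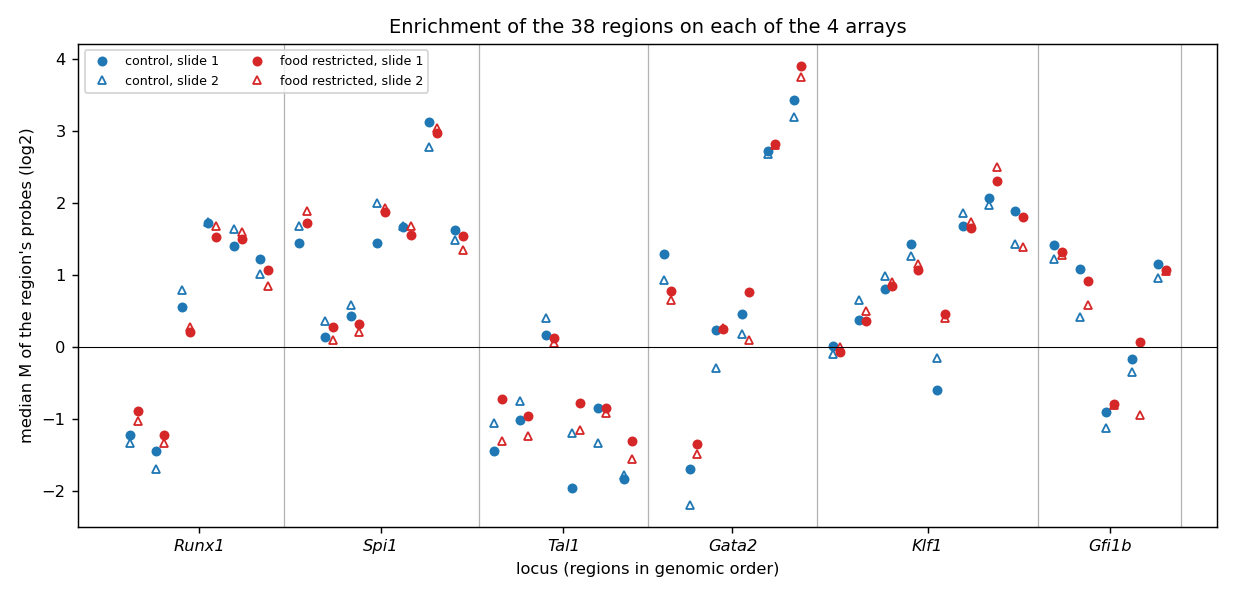
Median M (log2) of each of the 38 regions on the 4 arrays, in genomic order within each locus; circles are slide 1, triangles slide 2, blue the control and red the food restricted pool. The levels span -2.20 to 3.91 and the 4 arrays of a region mostly lie close together, with the fifth Klf1 region among those whose pools stand apart on both slides.

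The comparison of the pools asked whether food restriction of the dam went with other methylation at these loci. Among the 38 regions, 1 at Klf1 was higher in the FR pool by the size used for a call, and none was lower. D stands for M in the FR pool less M in the control pool within a slide, and a call needs a D of 0.5 or more in size (1.41-fold) on each slide, in 1 direction. The called share was 1 of 38 (2.63%) against a background of 4.55% of all regions higher, and 0 of 38 against 0.643% lower. With a size of 0.3 there were 4 higher regions (10.5%), at Runx1 (1), Gata2 (2) and Klf1 (1), against a background of 12.2%. At that size 1 region (2.63%), at Runx1, was lower, against 2.68%. These shares lay near or below those of the array and show nothing particular to the members. Precipitated signals were well above background more often in the FR pool, as given above, and the part of this in D was not tested.

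The direction of D was mixed. On both slides 12 regions (31.6%) were higher in the FR pool and 12 (31.6%) lower, against 39.1% and 23.7% of all regions. In the other 14 (36.8%) the slides disagreed in sign, as in 37.2% of all regions. The median D over the 38 regions was 0.03 on slide 1 and -0.03 on slide 2, against 0.04 and 0.09 over all regions. The median size of D was 0.16 and 0.22. The median size of the difference between the repeats of a pool was 0.23 for the control pool and 0.12 for the FR pool. The typical difference between the pools was thus of the size of that between repeats. Repeats differ in slide and dye, though, whereas D is taken within a slide. The median D of Spi1, Klf1, Runx1 and Gfi1b lay between -0.08 and 0.09 on each slide. Gata2 stood at 0.20 and 0.34, although its mean over slides turned to -0.11 in the precipitated channel alone, and Tal1 at 0.29 and -0.10. Between the slides, D had r = 0.35 over the 38 regions and 0.34 over all regions; each locus gives several of these points.

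**Figure D3:**
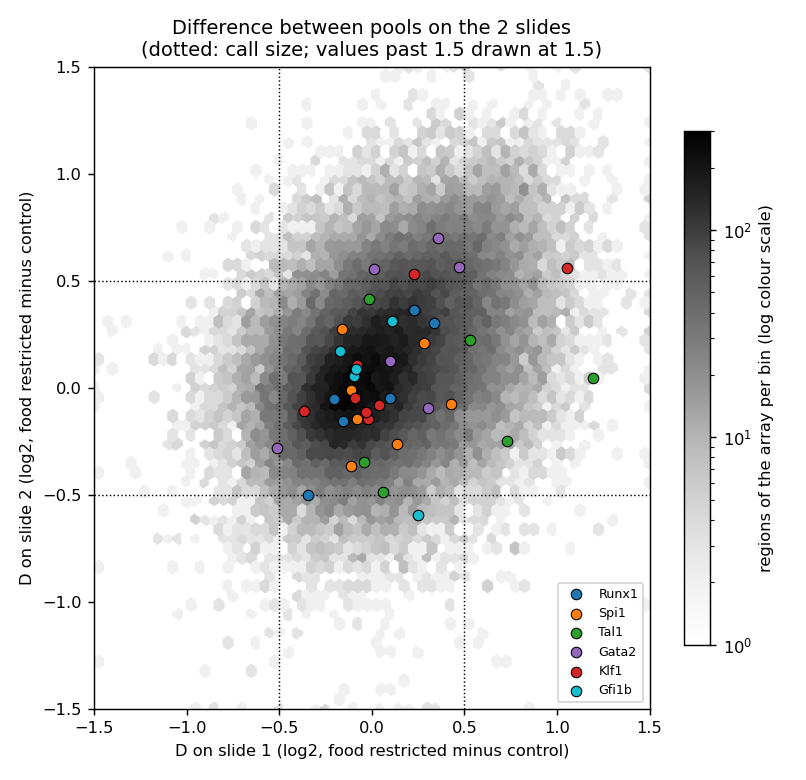
D (log2, food restricted minus control) of each of the 38 regions on slide 2 against slide 1, coloured by locus, over the density of all regions of the array in grey. Dotted lines mark 0.5 in size; 1 Klf1 region lies past it on both slides in the upper right corner, and the other 37 do not.

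The called Klf1 region lay on chromosome 8 from 87425782 to 87426771 (7 probes). Its M was -0.60 and -0.16 in the control pool and 0.45 and 0.40 in the FR pool, so both FR arrays stood above both control arrays. The region was picked out by its D, so this order follows in part from that choice. D was 1.06 and 0.56, with a mean of 0.81 (1.75-fold). The repeats differed by 0.45 in the control pool and by -0.05 in the FR pool. The precipitated signal, centred per array, exceeded that of the control pool by 1.25 and 1.02, and for the reference signal the excess was 0.21 and 0.45. Among regions of its range of M only 0.81% were called higher, the sixth of 10 equal classes.

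The probes of that region did not move together. The last probe, from 87426727 to 87426771, rose from -1.15 and -0.16 to 0.45 and 0.69, a D of 1.61 and 0.85. The fourth and the fifth probes had D of 0.66 and 0.63 and of 0.28 and 0.86, and both were not well above background in the precipitated channel on either control array. The first 3 probes had D of -0.66 and 0.19, -0.42 and 0.25, and -0.14 and 0.11, and the sixth had -0.02 and 0.38. These were below 0 on slide 1 and make up most of the region's probes, whereas the region's D there was 1.06. Without any one of the 7 probes the call was lost, and without the last the mean D was -0.09. Further, the mean D was 0.33 with means over probes, 0.18 with the median of probe differences and 0.19 without dim precipitated probes. With loess normalization it was 0.25 and with normexp correction 0.17. None of these settings called the region. The region's mean D changed sign when the last probe was left out and for none of the other 6.

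**Figure D4:**
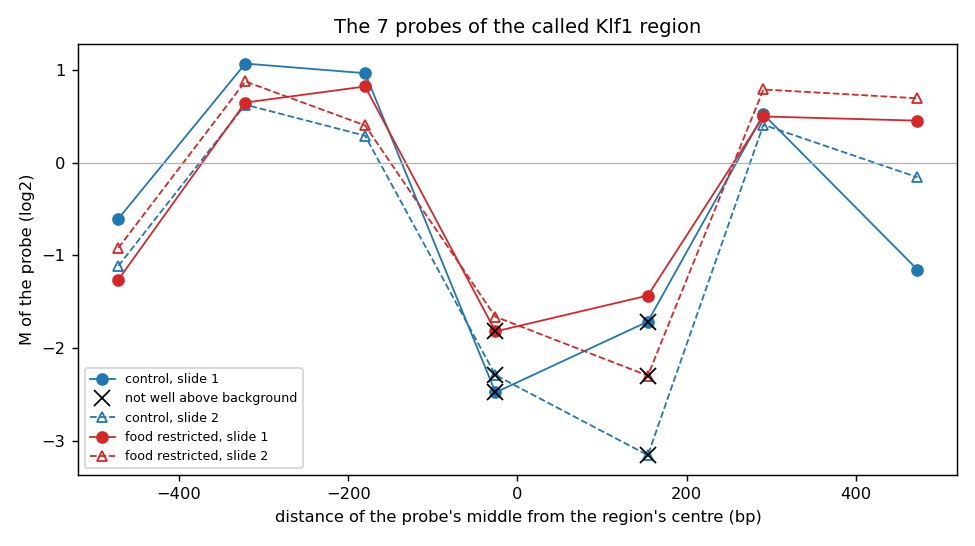
M (log2) of the 7 probes of the called Klf1 region on the 4 arrays against the distance of each probe's middle from the centre of the region (bp); crosses mark precipitated signals not well above background. The control arrays (blue) fall away from the food restricted arrays (red) at the last probe, and the first 3 probes show no common order of the pools.

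The Gata2 region of highest enrichment came close to a call. Its M of 3.43 and 3.19 in the control pool against 3.91 and 3.76 in the FR pool gave a D of 0.47 and 0.57, and no FR value overlapped a control value. The channels moved the other way: the precipitated signal differed by -0.49 and -0.40 (FR minus control) and the reference signal by -0.85 and -0.91. In the precipitated channel alone its mean D was -0.45, with the running median of D along M taken off it was -0.01, and with quantile normalization 0.08, whereas loess gave 1.17. Over the tenth of regions with the highest M, of which it is 1, the median D was 0.17 and 0.32, the reference difference was -0.38 and -0.41, and 12.4% were called higher. The other Gata2 region near the size was the lowest of the locus, whose D was 0.36 and 0.70. Over the tenth of regions with the lowest M, of which this region is 1, the median D was 0.30 and 0.33, and 11.4% were called higher. The region's mean D of 0.53 turned to 0.22 with the running median taken off and to -0.06 with normexp correction. The first Gata2 region, from 88145209 to 88146872 (9 probes), was lower in the FR pool, with 1.30 and 0.93 against 0.78 and 0.65 and a D of -0.51 and -0.28. Its mean D of -0.40 was below 0 in all 14 alternatives that keep the region but was -0.06 with loess and -0.12 with normexp correction.

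At Runx1 the third region, from 92699012 to 92700954 (11 probes), was the most negative of the 38, with a D of -0.35 and -0.50 and no overlap between the pools. Its mean D of -0.42 was below 0 in all 14 alternatives that keep the region but was -0.01 with normexp correction and -0.09 with loess. With each array centred on its densest value it was called lower. The first Runx1 region, from 92694995 to 92696862 (10 probes), had M of -1.23 and -1.34 against -0.89 and -1.03, a D of 0.34 and 0.30, again without overlap. Over all regions of its class of M, the median D was 0.19 and 0.18. With the running median taken off, its mean D was 0.11. Both of these Runx1 regions were named for their D, so the lack of overlap follows in part from that choice.

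The most positive Tal1 region, from 114733582 to 114734977 (7 probes), differed on 1 slide only. Its M was -1.97 and -1.20 in the control pool and -0.78 and -1.16 in the FR pool, so D was 1.19 and 0.05. In the control pool 1 and 2 of its 7 precipitated signals were well above background, against 5 and 3 in the FR pool, so no fold is given, and the part of dim signals in this difference was not tested. The most negative, from 114730504 to 114731825 (8 probes), had a D of 0.06 and -0.49. The lowest Tal1 region had a D of 0.53 and 0.22. It belongs to the tenth of regions with the lowest M, whose median D was 0.30 and 0.33. With the running median taken off, its mean D was 0.09.

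At Spi1 no D exceeded 0.43 in size. The most positive region, from 90910618 to 90911613 (6 probes), had M of 1.44 and 1.68 in the control pool and 1.72 and 1.89 in the FR pool, a D of 0.28 and 0.21. The most negative, from 90933706 to 90935067 (6 probes), had 0.43 and 0.58 against 0.32 and 0.21, a D of -0.11 and -0.37. With loess normalization 2 Spi1 regions, the most positive one and the one of highest M, were called higher, as were 8.53% of all regions.

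The other Klf1 and Gfi1b regions differed little or unevenly. The most negative Klf1 region, from 87424511 to 87425507 (6 probes), had 1.43 and 1.26 against 1.06 and 1.15, a D of -0.37 and -0.11. The Klf1 region of highest M had a D of 0.23 and 0.53 on its 3 probes. The lowest Gfi1b region was also its most positive, with a D of 0.11 and 0.31. The most negative Gfi1b region, from 28476497 to 28478421 (11 probes), had -0.17 and -0.35 against 0.07 and -0.94. Its D was 0.25 and -0.59, and its FR repeats differed by -1.02, the largest gap between repeats among the 38 regions.

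**Figure D5:**
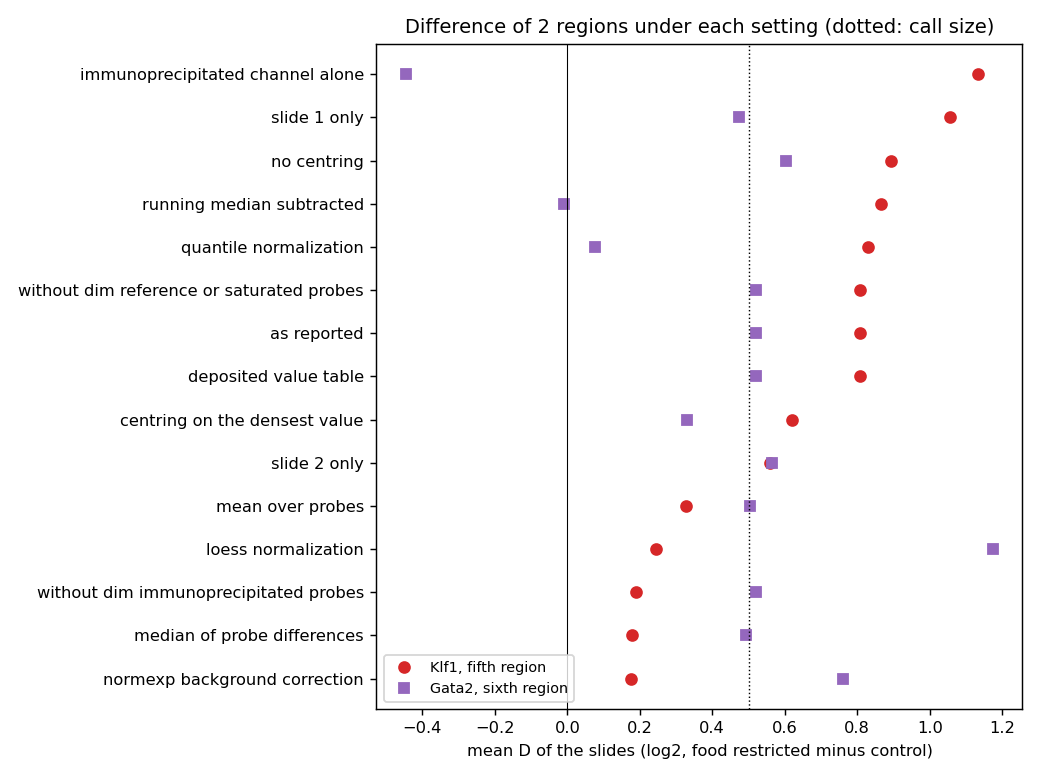
Mean D of both slides (log2, food restricted minus control) of the called Klf1 region (red circles) and of the Gata2 region of highest M (purple squares) under each processing setting, with the dotted line at 0.5. The Klf1 value ranges from 0.17 to 1.13, and the Gata2 value from -0.45 to 1.17.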

How the data were processed

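MeDIP-chip (precipitation of methylated DNA read on a 2-colour tiling array) was measured on 4 arrays. The submitters' processing notes name Agilent Feature Extraction, version 10.5.1.1, for the scanner files. Per the file headers, the deposited processed intensities are after subtraction of local background and a linear dye factor, and probe positions are on mm9. Flags for outliers, saturation and signal well above background were used as deposited. The deposited value table holds log2 ratios of the dyes, neither turned nor centred. Each of its columns equals 1 scanner file within 0.001 at 100% of probes, but for 2 samples it is the other's file, so it served as an alternative only, matched by scanner file. Of 420288 spots, 4474 were controls and 65 of the other 415814 were left out for outlier flags; 0 of the member probes were saturated or so marked.

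M was computed from processed intensities, with the direction from the titles' dyes, less the median of the array. The value of a region is the median M of its probes. Differences were taken within a slide. Work was done in Python 3.11.15 with numpy 2.4.6 and pandas 2.3.3, and in R 4.3.3 with limma 3.58.1 for normexp (offset 50) and loess. Normexp used the median spot signals in place of the mean signals planned. The steps were tested on simulated data. The number of arrays limits the precision, and repeats of 1 pool, which differ in slide and dye, show technical error alone.

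Regions named are, per locus, those of lowest and highest M, those of most negative and most positive mean D, and every called one (22 regions). The members and lists were chosen with earlier results of these data known. Lists of other blood and liver factor genes were not used here, because no mm9 positions were given for them. Tried were 18 alternatives, 17 planned and 1 chosen after seeing the data (the median of probe differences), and leaving out each probe of the called region, also chosen then.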

Additional observations from a re-analysis of the deposited data

How the results depend on the processing

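The count of 1 higher region held under normexp, quantile normalization, the filters on dim reference and on dim precipitated probes, the running median, the precipitated channel alone, the value table, differences across slides and the median of probe differences, with 1.18% to 5.20% of all regions called higher there, but not always for the same region: normexp called the highest Gata2 region, the filter on dim precipitated probes called the first Runx1 region and the median of probe differences called the Klf1 region of highest M. With the share of all regions in parentheses, the higher count was 4 with a size of 0.3 (12.2%), 0 with 0.7 (1.46%), 0 with centring on the densest value (1.52%), 4 with loess (8.53%), 0 with means over probes (3.11%), 2 without centring (7.19%), 3 of 43 regions with probes at most 300 bp apart (5.38%), and 4 to 5 on 1 slide alone (12.4% and 13.8%). The loess calls were 2 at Spi1 and 2 at Gata2. The lower count of 0 became 1 with a size of 0.3 (2.68%), 1 with the densest value (2.38%) and 1 to 2 on 1 slide alone (4.49% and 3.75%). With no replicate block, taking differences across the slides, 1 region was higher and 0 were lower, against 3.96% and 0.44% of all regions. This setting pairs arrays of unlike dye orientation and leaves the mean D of every region unchanged by construction. The slide number marks a shared slide and dye orientation, not a shared animal.

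The median D over the member regions, 0.008 as reported, was -0.18 with the densest value, -0.16 in the precipitated channel alone, 0.069 with loess, 0.092 with means over probes, 0.093 without centring and 0.13 with normexp; on 1 slide alone it ranged from -0.03 to 0.03. The D of the called Klf1 region turned to -0.094 without its last probe, and lay between 0.43 and 0.64 without any other. The cause of these changes was not tested. An offset of 50, as used with normexp, makes the log ratios of dim probes smaller in size by construction, and its part in these changes was not tested. The precipitated signal of the median member probe, background subtracted, was 71.2 and 52.4 in the control pool and 112 and 79.2 in the FR pool. Its bearing on the precision was not tested.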
